A study of Rattus norvegicus with 2 samples.

Results

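The opioid system of the brain was described here through 7 genes: the peptide precursor genes Penk, Pdyn and Pnoc and the receptor genes Oprm1, Oprk1, Oprd1 and Oprl1. They were chosen by name, and all 7 were found among 39500 genes and transcripts of a rat microarray by matching the RefSeq accession of each probe to a symbol, which gave 10 probes. The RNA came from the hypothalamus, dissected as a block, of SHR, the spontaneously hypertensive rat, whose blood pressure becomes high with age. The male group and the female group were each 5 rats of 9 weeks, with no treatment named in the labels, and in each group 100 ng of RNA per rat was pooled and measured on 1 single-colour (Cy3) array. With 1 pool per sex there was no replicate and no test, and every difference below describes these 2 pools and their arrays only.

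Opioid peptides are cut from large precursor proteins and act on receptors coupled to inhibitory G proteins, which lower cyclic AMP, open potassium channels and close calcium channels, so that the receiving neuron is quietened. Penk yields the enkephalins, which bind the delta and mu receptors encoded by Oprd1 and Oprm1. Pdyn yields the dynorphins, which prefer the kappa receptor encoded by Oprk1, and Pnoc yields nociceptin, which binds the related receptor encoded by Oprl1. In the hypothalamus dynorphin is made in vasopressin neurons, in orexin neurons and in the arcuate neurons that also make kisspeptin and neurokinin B, where it restrains the release of gonadotropin-releasing hormone.

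All 7 opioid genes were well above background on both arrays, and on the brightest probe of each none differed by 1.5-fold or more between the pools. The exceptions were a second, dimmer Oprl1 probe, 2.42-fold higher in males, and Oprk1, which was just past 1.5-fold with median centring or quantile normalization. Of the 7, 5 were lower in the male pool (Penk, Pnoc, Oprm1, Oprk1 and Oprl1) and 2 were higher (Pdyn and Oprd1), with a median log2 difference, male minus female, of -0.14. Both arrays measured 24140 genes and transcripts well above background, and of these 55% had the lower value in males, with a median of -0.016. A difference of 1.5-fold or more was seen for 6.84% of the 26109 genes and transcripts measured in either pool, with 4.11% higher and 2.72% lower in males. A difference of 2-fold or more was seen for 4.17%, with 2.54% higher and 1.64% lower, and without spots in patches of the slide where neighbouring spots also differed the 2-fold count dropped from 1090 to 144 and the 1.5-fold count from 1785 to 565. Of the 24140 well above background on both arrays, as the 7 opioid genes were, 3.4% were at least 1.5-fold and 1.76% at least 2-fold apart, so that 0 of 7 at either fold is close to the background. The differences ranged from -0.57 for Oprk1 to 0.08 for Oprd1. The values were read as the scanner software's background-subtracted signal, in units of brightness, and differences were taken on the log2 scale with each array's 75th percentile set to 0 (2203 units for the male array and 2254 units for the female array).

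Because the groups are the sexes, the promoters were searched for the sites that sex hormone receptors bind. The table of RefSeq promoters on build GRCr8, with 250 bases before and 50 after each start, held 4 windows for 3 of the 7 genes (Pdyn, Oprd1 and Oprm1, the last with 2 starts). None held, on either strand, the estrogen response element (GGTCA and TGACC 3 bases apart) or its arm GGTCA, nor the androgen response element (AGAACA and TGTTCT 3 bases apart) or its arm AGAACA. The arms GGTCA and AGAACA were present in 40.5% and 20.7% of all 33469 promoter windows, and the full elements in 0.027% and 0.015%. The cyclic AMP response element TGACGTCA and its arm TGACG, present in 1.83% and 21.2% of windows on either strand, were also not found in the 4. No match says only that these letters are not in these windows. The Pdyn window held the letters of a TATA box, TATAAA, on its own strand, as did 8.80% of all windows. They lay at position 238 of 300, where the start follows the first 250 bases, and whether they act as a TATA box was not tested. In the Pdyn window 58.3% of bases were G or C. The Oprd1 window had no TATAAA and 79.0% G or C, more than 98.8% of all windows. The 2 Oprm1 windows had 39.0% and 57.7% G or C. Pdyn and Oprd1 were the 2 genes of the 7 not lower in the male pool, with log2 differences of only 0.04 and 0.08. Any link between sequence and direction was not tested. Their windows are shown. Both lie on the minus strand and are written 5′ to 3′, with the TATAAA match in capitals.
Pdyn promoter, GRCr8 chr3:137366454-137366753, minus strand: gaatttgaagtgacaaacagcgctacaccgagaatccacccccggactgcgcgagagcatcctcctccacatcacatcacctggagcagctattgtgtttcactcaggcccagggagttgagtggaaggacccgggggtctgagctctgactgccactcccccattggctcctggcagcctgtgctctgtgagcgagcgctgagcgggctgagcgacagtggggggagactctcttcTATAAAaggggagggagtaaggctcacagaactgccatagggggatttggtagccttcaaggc
Oprd1 promoter, GRCr8 chr5:149624950-149625249, minus strand: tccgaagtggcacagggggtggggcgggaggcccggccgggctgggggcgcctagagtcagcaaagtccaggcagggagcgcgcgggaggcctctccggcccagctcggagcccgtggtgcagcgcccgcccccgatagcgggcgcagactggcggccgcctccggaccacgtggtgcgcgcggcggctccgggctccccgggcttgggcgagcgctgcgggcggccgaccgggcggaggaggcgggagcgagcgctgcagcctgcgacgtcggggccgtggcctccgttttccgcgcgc

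Signals near the background are less precise than bright ones, and this set how closely each gene could be read. Probes printed on several spots gave the technical SD of a male minus female log2 difference on 1 spot. It was 0.038 for signals above the 75th percentile, 0.056 at log2 signals of -2 to 0 relative to it, 0.11 at -4 to -2, 0.23 at -6 to -4 and 0.31 below -6, the last from 22 probes. This SD covers printing, hybridisation at a spot and scanning, not rats, pools or labelling. Every opioid probe was printed on 1 spot. The share of rat transcript spots well above background was 71.6% for the male pool and 73.0% for the female pool, and the lowest probe signal that counted as such was 15.1 units and 12.9 units.

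**Figure D1:**
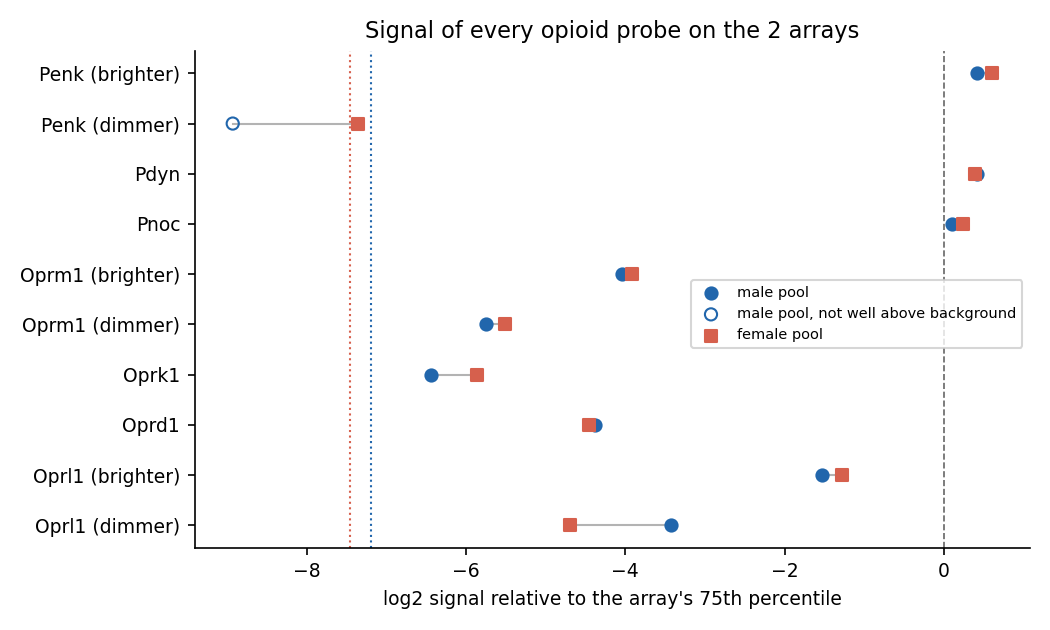
Log2 signal of each of the 10 opioid probes (rows) relative to the array's 75th percentile (dashed line at 0) in the male pool (blue circles) and the female pool (red squares), with dotted lines at the lowest probe signal well above background on each array in the same colours. The precursor probes of Pdyn and Pnoc and the brighter Penk probe lie above 0 on both arrays, and the dimmer Penk probe is the only one with an open symbol, which marks a signal not well above background.

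The tissue was checked against hypothalamic markers. Of 19 such genes, 16 were well above background on both arrays and 1 in the female pool only, while Nr5a1 and Rax were well above background on neither array. Avp, the vasopressin gene, lay at percentile 99.8 of all probes (male) and 99.7 (female), and Pmch, which encodes melanin-concentrating hormone, at 99.9 on both. Their list had a median difference of -0.058, and the summed signal of its 16 genes came to 10301% (male) and 10526% (female) of the 75th percentile.

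Penk, the enkephalin precursor gene, was lower in the male pool by a small amount on its brighter probe. The signal of that probe (A_42_P749184, for NM_017139) was 2933 units in the male pool and 3421 units in the female pool, or 133% and 152% of the array's 75th percentile. The log2 difference was -0.19, a 1.14-fold higher level in the female pool, and lay 4.91 technical SD from 0. Of 4645 genes and transcripts with a signal above the 75th percentile, 1.46% were at least as far below 0. The place of the probe among all 45591 probes moved little, from rank 3819 from the top in the female pool to 4155 in the male pool, which are percentiles 91.6 and 90.9. A rank within an array also depends on how well a probe binds and labels, so the order of different genes was not read as an order of transcript amounts. The second Penk probe (A_44_P497807, for the same transcript) gave 13.8 units in the female pool, well above background, and 4.52 units in the male pool, not well above background. The female value was under the male array's lowest probe signal well above background, so no fold was given for it. The local background of that spot was 37 units (male) and 35 units (female). The 2 Penk probes name 1 transcript but gave signals at opposite ends of the range, so the statements on Penk rest on the brighter probe alone.

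Pdyn, the dynorphin precursor gene, was nearly level between the pools. Its probe (A_44_P476915, for NM_019374) gave 2950 units in the male pool and 2945 units in the female pool, or 134% and 131% of the 75th percentile. The log2 difference of 0.04 was within the technical SD of 0.038, at 0.94 of it. The probe lay at percentile 90.9 (male) and 90.6 (female). Pdyn was thus the precursor gene of the 3 with the smallest difference, and the only one not lower in the male pool.

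Pnoc, the nociceptin precursor gene, was lower in the male pool, like Penk. Its probe (A_43_P11654, for NM_013007) gave 2363 units in the male pool and 2669 units in the female pool, or 107% and 118% of the 75th percentile. The log2 difference of -0.14 was 3.70 technical SD from 0. Of the 4645 genes and transcripts at such signals, 4.78% were at least as far below 0. The percentile was 89.3 (male) and 89.9 (female), so that the 3 brightest precursor probes each moved by at most 0.74 percentile points between the arrays.

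The mu receptor gene Oprm1, whose product binds enkephalins and is the main target of morphine, was slightly lower in the male pool on both of its probes. The brighter probe (A_64_P061205, for the transcript variant NM_001304740) gave 134 units in the male pool and 149 units in the female pool, a log2 difference of -0.11 against a technical SD of 0.11. The dimmer probe (A_44_P1089821, for the variant NM_001038597) gave 41.1 units and 49.5 units, a difference of -0.23 against a technical SD of 0.23. Both differences were about 1 technical SD. The brighter probe lay at percentile 59.1 (male) and 60.1 (female), and the dimmer probe at 45.1 and 47.2. With normexp, a background correction that adds an offset of 50 units, the brighter probe was at 0.04 and the dimmer probe at -0.13, so the sign of the brighter probe turned with the background correction.

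Oprk1, the kappa receptor gene, had the largest difference of the 7 genes on the brightest probe of each, an order that did not hold with normexp, and one of the dimmest signals. Its probe (A_64_P096619, for NM_017167) gave 25.5 units in the male pool and 38.7 units in the female pool over a local background of 31 and 32 units. The log2 difference was -0.57, or 1.48-fold higher in the female pool, and was 1.82 technical SD from 0. Of 2414 genes and transcripts with a log2 signal below -6, 2.94% were at least as far below 0. The probe lay at percentile 39.9 (male) and 44.5 (female). With normexp the difference was -0.15, of the same sign, and smaller in size than those of Oprl1 (-0.22), Penk (-0.16) and Oprd1 (0.15). The technical SD of 0.31 was taken without normexp and is not set beside this value. With median centring it was -0.60 and with quantile normalization -0.61, just past 1.5-fold in both cases.

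Oprd1, the delta receptor gene, did not differ beyond the technical error. Its probe (A_64_P020053, for NM_012617) gave 106 units in the male pool and 103 units in the female pool, and lay at percentiles 56.3 and 55.8. The log2 difference of 0.08 was 0.34 of its technical SD of 0.23. Oprd1 and Oprk1 were each measured on 1 spot in the dim range, where a difference of 1.5-fold, 0.58 on the log2 scale, compares with a technical SD of 0.23 or 0.31.

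Oprl1, the nociceptin receptor gene, gave opposite directions on its 2 probes, which name 1 transcript (NM_031569). The brighter probe (A_44_P408520) gave 766 units in the male pool and 933 units in the female pool, or 34.8% and 41.4% of the 75th percentile. Its log2 difference was -0.25 against a technical SD of 0.056, or 1.19-fold higher in the female pool, and 1.65% of 5215 genes and transcripts at log2 signals of -2 to 0 were at least as far below 0. The dimmer probe (A_64_P125150) gave 205 units in the male pool and 87.0 units in the female pool, a log2 difference of 1.27, or 2.42-fold higher in the male pool. It was the only opioid probe at least 2-fold apart, as were 3.86% of the 30645 probes measured in either pool, with 2.37% higher in males. Its percentile was 64.2 (male) and 53.9 (female), whereas the brighter probe lay at 79.2 and 80.9. With normexp the dimmer probe was at 0.75 and the brighter probe at -0.22, so the disagreement remained.

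The position of the spots on the slide bears on the dimmer Oprl1 probe. Its 18 closest measured neighbours, spots of other probes, included 7 with a signal at least 2-fold higher in males and 17 higher by any amount, and their median log2 difference was 0.42. Around each of the other 9 opioid spots at most 1 of the 18 nearest spots was at least 2-fold apart, and the median of the 18 lay between -0.064 and 0.055. The neighbour median was 0.035 for the brighter Oprl1 probe and 0.021 for Oprk1. A patch was defined by 2 or more of the 18 neighbours of a spot being at least 2-fold apart in 1 direction, and the dimmer Oprl1 spot was the 1 opioid spot of 10 that did. The part of the surrounding spots in the difference of any opioid probe was not tested.

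**Figure D2:**
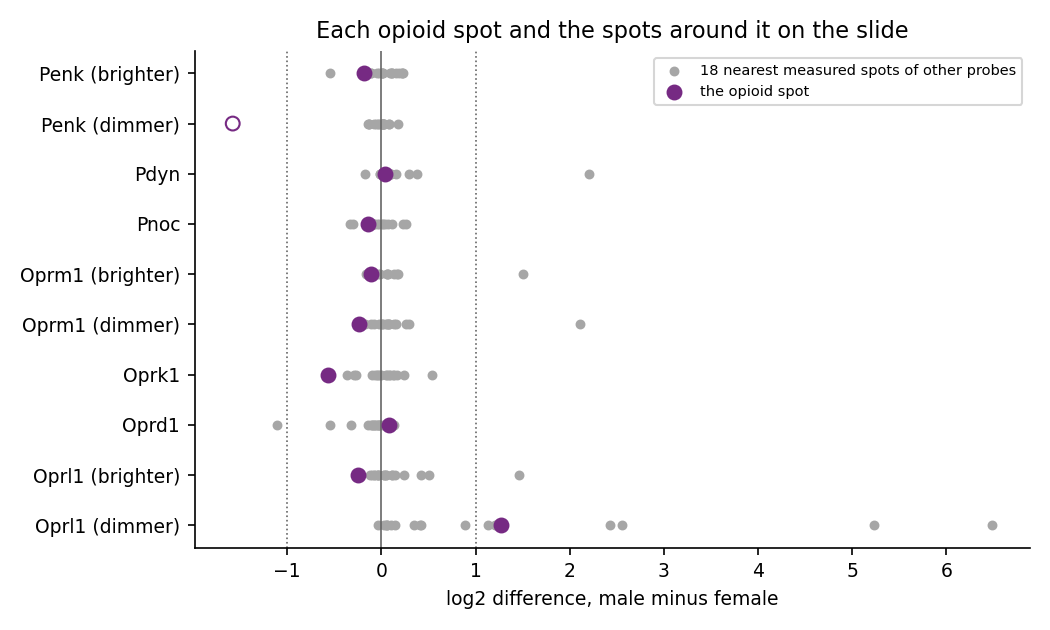
Male minus female log2 difference of each opioid spot (purple; open where the male signal was not well above background) and of its 18 closest measured neighbours on the slide, all of other probes (grey), with dotted lines at 2-fold. Around the dimmer Oprl1 probe 7 of 18 grey points lie beyond the right dotted line, against at most 1 beyond either line in the other rows.

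**Figure D3:**
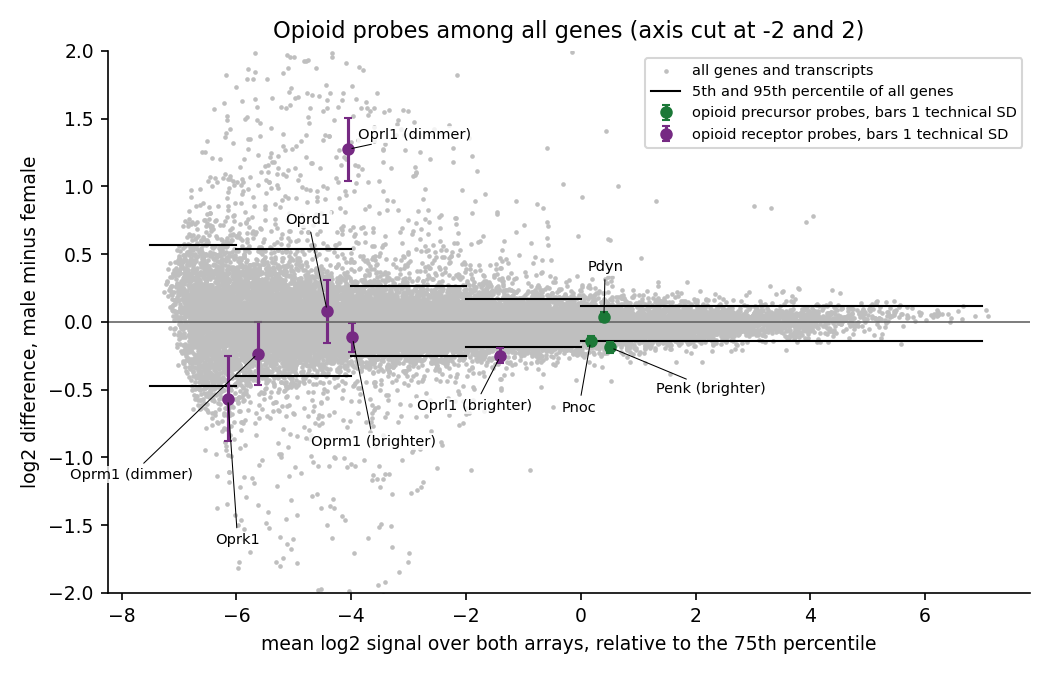
Male minus female log2 difference against mean log2 signal over both arrays for all genes and transcripts well above background on both (grey), with black lines at the 5th and 95th percentile in 5 signal ranges, and the 9 opioid probes measured on both arrays in green (precursors) and purple (receptors), with bars of 1 technical SD. The brighter Penk and Oprl1 probes, Pnoc and Oprk1 lie at or below the lower line, Oprd1, Pdyn and both Oprm1 probes lie within the lines, and the dimmer Oprl1 probe lies above the upper line at 1.27.

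The ratio of a pair of genes within an array does not depend on how the arrays are scaled. Of the 21 pairs among the 7 genes, 3 changed by at least 2 technical SD between the pools, with Oprl1 read on its brighter probe. All 3 involved Pdyn and share the value of its 1 spot, so they are not independent. How many pairs of other genes changed as much was not computed. Among genes and transcripts as bright as Pnoc, 4.78% were at least as far below 0 as Pnoc, which lay at 3.70 technical SD. The log2 ratio of Penk to Pdyn signal was 0.22 in the female pool and -0.01 in the male pool, a difference of -0.22 with a technical SD of 0.054. The Pdyn to Pnoc ratio was 0.18 higher and the Pdyn to Oprl1 ratio 0.29 higher in the male pool, at 3.28 and 4.24 technical SD. The Penk to Pnoc ratio differed by -0.046, within its technical SD of 0.054. The ratio of Pdyn to the gene of its receptor, Oprk1, was 0.60 higher in the male pool, at 1.93 technical SD. The 3 pairs among Penk, Pnoc and Oprl1 changed by 0.85 to 1.61 technical SD, less than the 3 pairs with Pdyn. With the dimmer Oprl1 probe, an alternative added after the values were seen, this no longer held: the ratios to Oprl1 differed by -1.46 for Penk, -1.24 for Pdyn and -1.41 for Pnoc, at 5.23 to 6.19 technical SD.

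Among other messengers of neurons that make dynorphin, Tac3, Kiss1 and Hcrt were lower relative to Pdyn in the male pool, and Avp was within 2 technical SD of it. Tac3, the neurokinin B gene, gave 2742 units in the male pool and 3790 units in the female pool, a log2 difference of -0.43. Its ratio to Pdyn was 0.47 lower on the log2 scale in the male pool (a difference of -0.47, at 8.64 technical SD), and the 18 spots around the Tac3 spot included 9 at least 2-fold higher in males, whose part in the Tac3 value was not tested. Kiss1, the kisspeptin gene, gave 23.6 units and 56.1 units on 1 dim spot, or 1.07% and 2.49% of the 75th percentile. Its difference was -1.22, or -0.40 with normexp. The ratio of Kiss1 to Pdyn differed by -1.25, and by -0.45 with normexp. Hcrt, the orexin gene, gave 1442 units and 1844 units, and its ratio to Pdyn differed by -0.36, at 5.29 technical SD. Avp gave 68339 units and 63410 units, and its ratio to Pdyn differed by 0.11, at 1.94 technical SD. The technical SD of these ratios does not cover rats, pools or labelling. RNA of a whole block was measured, so fewer cells of a type and less RNA per cell cannot be told apart.

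The full list of 15 messengers of neurons that also make dynorphin or enkephalin had 13 genes lower and 2 higher in the male pool. For comparison, the male value was the lower of the pair for 55% of 24140 genes and transcripts measured in both pools. That share was 61.7% at log2 signals of -2 to 0 and 45.1% below -6. Whether 13 of 15 exceeds it was not tested. The median of the list was -0.23, and -0.16 with normexp, beside -0.016 over all genes. Kiss1 was the 1 gene of the 15 at least 1.5-fold apart, beside 3.4% of all genes and transcripts well above background on both arrays. With normexp Kiss1 was at -0.40, under 1.5-fold. The list mixes genes of several nuclei, and it says nothing of which cells the RNA came from.

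None of the genes that make, cut and clear opioid peptides was at least 1.5-fold apart, which is near the 3.4% of all genes and transcripts well above background on both arrays. Of the same genes and transcripts, 55% were lower in males. In the peptide making list, which holds the prohormone convertases and their helpers, the male pool was higher for 3 genes and lower for 7, the median was -0.060 and none of 10 was at least 1.5-fold apart. Pomc, the precursor gene of the opioid beta-endorphin and of melanocortins, gave 3926 units in the male pool and 3407 units in the female pool, a log2 difference of 0.24. Its ratio to Penk was thereby 0.43 higher in the male pool on the log2 scale, at 7.85 technical SD. That SD does not cover rats, pools or labelling. Pam, which encodes the enzyme that amidates peptide ends, was at -0.14 on its brighter probe and 0.03 on its other probe. In the list of peptide breakdown and scavenging, the male pool was again higher for 3 genes and lower for 7, the median was -0.054 and none of 10 was at least 1.5-fold apart. Mme, which encodes neprilysin, an enzyme that degrades enkephalins, gave 67.4 units and 80.9 units, a difference of -0.23 against a technical SD of 0.23, on a spot with 3 of 18 neighbours at least 2-fold higher in males. Ece1, an endothelin-converting enzyme that also cuts other peptides, gave 42.8 units and 33.1 units, a difference of 0.40 on a dim probe, and 0.21 with normexp.

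The genes that carry the receptors' signal were also all under 1.5-fold apart. Of 17 genes of receptor coupling, which encode inhibitory G proteins, adenylyl cyclases, and potassium and calcium channels, the male pool was higher for 8 and lower for 9, and the median was -0.058, or 0.012 with normexp. Gnai1, which encodes an inhibitory G protein alpha subunit, gave 66.1 units and 87.5 units, a difference of -0.37, and -0.07 with normexp. Cacna1a, a calcium channel gene, was at 0.23 against a technical SD of 0.23. Of 15 genes that switch receptors off, such as arrestins, receptor kinases and RGS proteins, the male pool was higher for 4 and lower for 11, and the median was -0.056. Rgs17, a member of the RGS family, gave 841 units and 1057 units, a difference of -0.30, but 0.07 on its dimmer probe, and the receptor kinase gene Grk5 was at 0.20. Of other genes named for opioids, Opcml, which encodes a cell adhesion protein, was at -0.13, Ogfr, an opioid growth factor receptor gene unrelated to the opioid receptors, at -0.03, and Ogfrl1, which is related to Ogfr, at -0.02, or 0.04 with normexp. Over all pathway lists together, the male pool was higher for 20 of 71 genes and lower for 51, the median was -0.059, and 1 (Kiss1) was at least 1.5-fold apart. All 71 were well above background on both arrays, and of all genes and transcripts measured so, 55% were lower in males and 3.4% were at least 1.5-fold apart.

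**Figure D4:**
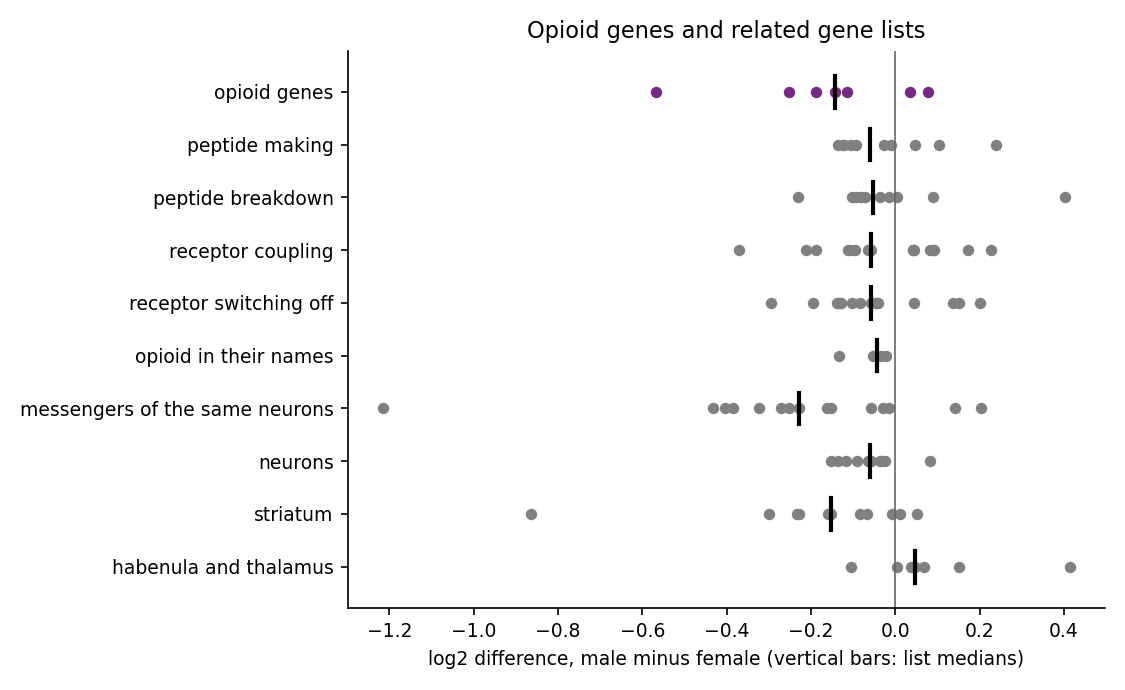
Male minus female log2 difference of each gene well above background on both arrays (points) in the opioid genes (purple), the pathway lists and 3 marker lists (grey), with vertical bars at list medians. The opioid median lies at -0.14, the peptide making, breakdown, coupling and switching off medians between -0.060 and -0.054, and the striatum median at -0.15.

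Markers of other cells and regions were compared between the pools too. The striatum, which is rich in enkephalin and dynorphin RNA, lies close to the hypothalamic block; of 12 striatal markers other than the opioid genes, 11 were well above background on both arrays, 9 of these with the lower value in males, and the median was -0.15, or -0.067 with normexp. The summed signal of the 11 was 906% (male) and 988% (female) of the 75th percentile, and Gpr6 was well above background on neither array. Of 10 neuronal markers 9 were lower in males, the median was -0.061 and the summed signals were 3154% and 3355%. Of 10 habenula and thalamus markers, regions rich in mu receptor RNA, only 8 had a probe matched to their symbol. Of these, 7 were well above background on both arrays, and Gpr151 was on neither. Among the 7, 6 were higher in males, with a median of 0.046 and summed signals of 685% and 662%. All 9 meningeal fibroblast markers were higher in the male pool, with summed signals of 455% and 178%. In the cortex list 4 of 8 markers were well above background on both arrays, 1 higher and 3 lower with a median of -0.17, and Tbr1 was not well above background on either. Of 7 pituitary markers 4 were well above background on both arrays, 3 of them higher in males, and Fshb and Gh1 were on neither. The differences of the 4 ran from -0.32 to 3.64, with a median of 1.19 and summed signals of 108% and 31.6%. The brightest of the 4 lay on a spot in a patch and made up 84.9 of the 108% and 20.8 of the 31.6%. The largest difference, 3.64, was on a spot outside patches, with 257 units in males and 21.2 units in females. The lowest, -0.32, was on a spot in a patch. Prl, which encodes prolactin, gave 122 units in females and 3.31 units, not well above background, in males, at least 7.91-fold higher in females on a spot in a patch, and is not in these sums. The part of these tissues in the differences of Penk, Pnoc and Oprl1 was not tested.

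**Figure D5:**
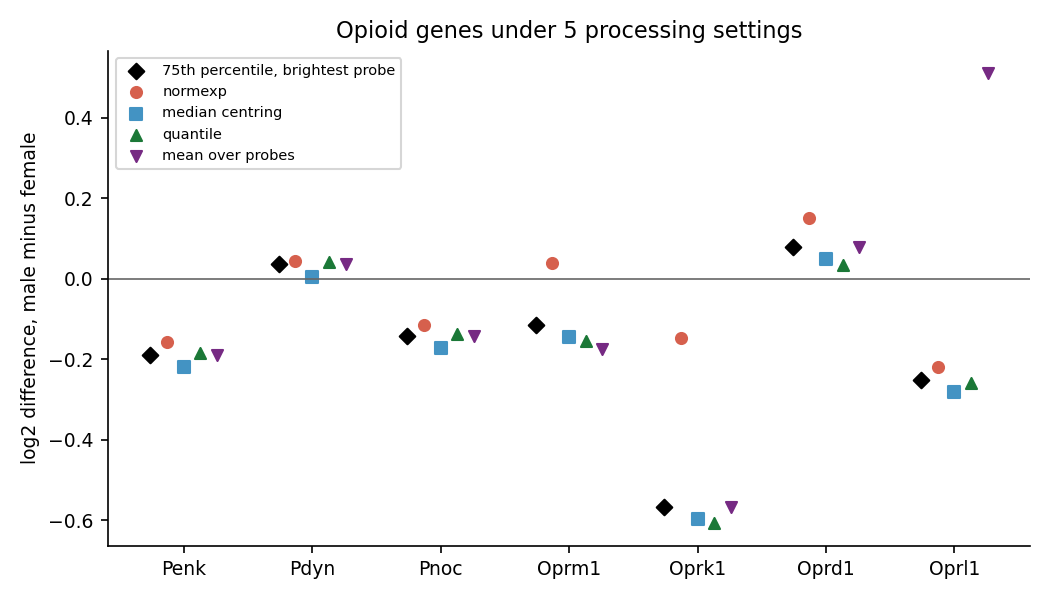
Male minus female log2 difference of each opioid gene under 5 settings: the 75th percentile with the brightest probe (black), normexp (red), median centring (blue), quantile normalization (green) and the mean over a gene's probes (purple). Penk, Pdyn, Pnoc, Oprk1 and Oprd1 keep their side of 0 in all 5, though the mean over probes leaves their values unchanged. Oprm1 crosses 0 with normexp, and Oprl1 crosses it with the mean over probes, to 0.51.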

How the data were processed

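The authors pooled the RNA before labelling, per the labels' protocols, and deposited 1 scanner file per pool. Per the file headers, its values are the background-subtracted intensity of Feature Extraction 11.5.1.1 (protocol GE1_1105_Oct12, design build rn4) with no scaling between arrays; the submitters' processing notes name version 9.1. The deposited series matrix of 42947 values per array equalled this intensity as a percent of the array's 75th percentile (medians 28.0 and 27.8). The headers place both arrays on 1 slide, in 1 scan.

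Of 58717 rat spots, 664 flagged as outliers by the scanner software on at least 1 array were left out, and none was saturated. Each array's 75th percentile was subtracted from its log2 signals, which were averaged over a probe's spots. A probe counted as well above background when over 50% of its spots did. RefSeq accessions matched symbols of the GRCr8 gene table for 21106 of 45591 probes (46.3%); the build of the array design differs, so the table gave names only. The brightest probe stood for a gene. A dim side was raised to its array's lowest probe signal well above background. No test was possible with 1 pool per sex; called means past 1.5-fold or 2-fold. The text names all 7 opioid genes with every probe, and from each pathway list any member 1.5-fold or more apart, or in its absence the 2 that differed most, plus Pomc, Avp, Tac3, Kiss1 and Hcrt; markers named for the tissue check or as well above background on 1 array or neither, and Ogfr and Ogfrl1, were chosen after their values were seen. Some genes the lists would name are not reported here. Members and lists were chosen with earlier results of these data known. Alternatives were normexp (limma 3.58.1, offset 50, on the spot's median signal in place of the planned mean signal), median centring, quantile normalization, the mean over probes, outlier spots kept, spots in patches left out, both arrays well above background, and the deposited matrix. Functions were tested on simulated data in Python 3.11.15.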

Additional observations from a re-analysis of the deposited data

How the results depend on the processing

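Penk, Pdyn, Pnoc, Oprk1 and Oprd1 kept their direction under all 8 alternatives, but only normexp, median centring and quantile normalization could change it. The mean over probes, outlier spots kept, spots in patches left out and both arrays well above background left these values unchanged. The deposited matrix holds the same signal. Penk lay between -0.22 and -0.16, Pnoc between -0.17 and -0.12, and Pdyn between 0.01 and 0.04. Oprd1 lay between 0.03 and 0.15, and Oprk1 between -0.61 and -0.15. Oprm1 turned to 0.04 with normexp and Oprl1 to 0.51 with the mean over its probes. The opioid median lay between -0.17 and -0.12 over 7 alternatives, and the median of all genes between -0.047 and 0.0078. No opioid gene was 2-fold apart under any of these 7, and 1 (Oprk1) was 1.5-fold apart with median centring and 1 with quantile normalization. With normexp, whose offset shrinks dim differences by construction, 0 of 71 pathway genes were 1.5-fold apart. Of all genes and transcripts, 1785 were 1.5-fold and 1090 were 2-fold apart; these counts were 859 and 491 with normexp, 565 and 144 without spots in patches, and 821 and 426 with probes well above background on both arrays, where fewer genes enter. No paired analysis was possible because each sex had 1 pool. Ranking only probes well above background on both arrays lowers every percentile by construction. Signal close to background limits Oprk1, Oprd1 and Oprm1, and 1 array per sex limits every value.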
